A study of Canis lupus familiaris with 20 samples.

Results

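Interleukins, the tumour necrosis factor (TNF) superfamily and their receptors were followed in dog retina after injection of ciliary neurotrophic factor (CNTF). The members were all genes whose name on the array starts with IL and a digit or with TNF, other than IL6ST and IL8, and each gene was represented by the probe with the highest mean signal over the 20 arrays. This gave 96 genes, with 136 probes, of 13789 named genes and 43603 probes in all. By role they were 37 interleukin ligands, 27 interleukin receptor chains, 5 secreted antagonists or decoy receptors, 8 TNF ligands, 11 TNF receptors, 7 proteins named as TNF-induced (TNFAIP), and IL4I1, an amino acid oxidase.

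Interleukins are secreted proteins through which immune and tissue cells signal, and most bind receptors made of several chains, of which some are shared between ligands. TNF ligands are mostly membrane-bound trimers, and their receptors recruit adaptor proteins that lead to NF-kB or, for receptors with a death domain, to cell death. Soluble binding proteins and decoy receptors hold either kind of ligand back. In the retina, microglia, Müller glia and incoming leukocytes are known sources of these proteins, and CNTF itself signals through a receptor of the interleukin 6 family.

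The study set out to measure how CNTF changes the retina of dogs with normal cones and of dogs with CNGB3 achromatopsia, an inherited loss of cone function. Each of 10 dogs received 12 µg CNTF into the right eye and phosphate-buffered saline (PBS) into the left, and the retinas were taken 1 week later, so that the 4 groups of 5 arrays were the PBS and the CNTF eyes of 5 normal and of 5 mutant dogs. The mutant dogs were homozygous for the D262N missense mutation (CNGB3m/m), and of the normal dogs 4 were carriers (CNGB3+/m) while dog 3 was CNGB3+/+. The normal dogs were all male and 3 mutants were female, and all came from a single research colony. The sample labels give ages of 8.9 weeks for normal and 10.7 to 11.5 weeks for mutant dogs, whereas the description of the series puts both at about 11 months. Genotype therefore cannot be told apart from age as labelled. Every array was of a separate retina, so the spread between replicates is that between dogs. These are bulk tissue arrays, in which fewer cells of a type and less RNA per cell cannot be told apart.

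Levels below are log2 signal minus the 75th percentile of the array, so that 0 is the brightness of the 75th percentile probe and 1 unit is a 2-fold difference. Levels of different probes are not comparable. A fold given as at least a value is a bound, for a probe above background on no array of the dimmer group. The mean of the brighter group in it takes in any arrays not above background, so it is not a strict lower limit. An adjusted p beside a bound tests the fitted change and not the bound. Changes are CNTF minus PBS eye, in log2 units, with the standard error (SE) of limma's fit and its Benjamini-Hochberg adjusted p over all probes, and a member was called at an adjusted p under 0.05. Between 52.0 and 71.8% of probes were well above background per array. The arrays lay on 5 slides of 4, of which only slide 3 held both treatments, with CNTF eyes of normal dogs 1 and 2 beside PBS eyes of mutant dogs 4 and 5. Treatment was therefore nearly tied to slide, and the values within slide 3 compare treatment and genotype together. The retinal markers SAG, the arrestin of rods, and GLUL, glutamine synthetase of Müller glia, were detected on all 20 arrays.

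By the selected probe, 28 of the 96 members were above background on all 20 arrays and 23 on none. A further group of 14 was above background on no PBS array and on 1 or more CNTF arrays. The members always detected were IL4, IL7, IL10, IL11, IL17C, IL25, IL28B, IL29L and IL34 among ligands, 7 receptor chains, IL18BP, TNFSF10, 5 TNF receptors, 4 TNFAIP genes and IL4I1. Members with no probe above background on any array included IL1B and IL12B, which encode classical inflammatory ligands, IL17F, IL24 and IL27, and the receptor chains IL1R1, IL2RA, IL10RA and IL18R1. The selected probes of IL6 and IL1A were each above background on 1 PBS array of a mutant dog and on no other, and a second IL6 probe was so on 1 CNTF array of a mutant. At least 4 of 5 arrays were above background for 50 members in PBS eyes and 40 in CNTF eyes of normal dogs, and for 40 and 39 in those of mutant dogs. The 53 members that reached this count in at least 1 group were tested, and the 20 others seen somewhere were not. IL16, IL33 and IL7R, as well as the second probes of IL18 and IL12RB2 described later, reached it in CNTF eyes only. IL5, IL1RL1, IL17RE and TNFAIP3, all called lower in normal dogs, reached it in PBS eyes only. Admission through CNTF or PBS eyes alone favours a difference in that direction. The count over the members seen in every group is therefore given as well.

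**Figure D1:**
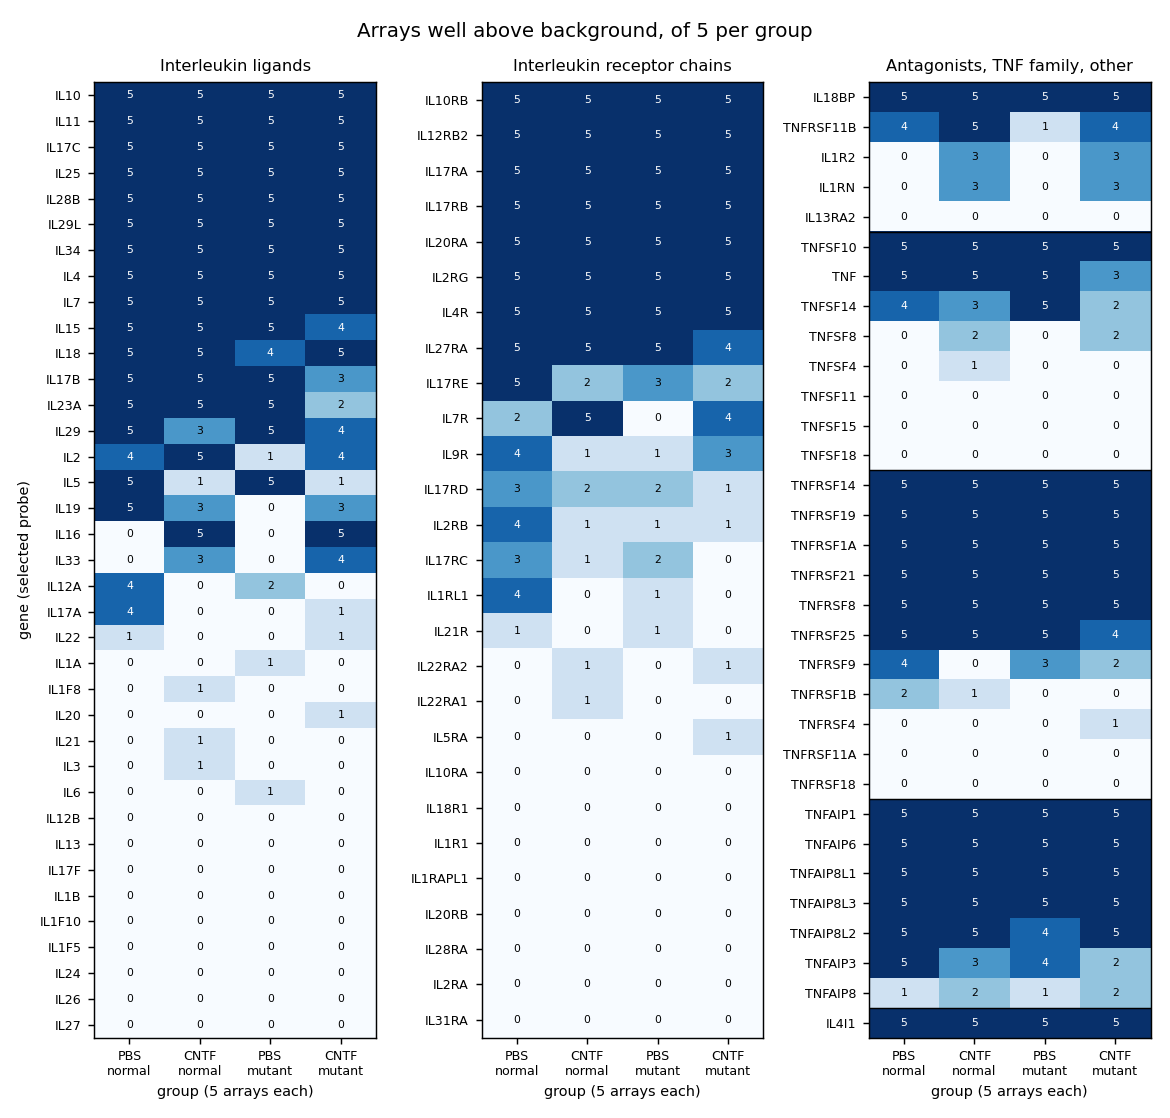
Number of arrays, of 5 in each group, on which the selected probe of each of the 96 members was well above background (columns: PBS and CNTF eyes of normal and mutant dogs; rows: genes by role). IL16 and IL33 go from 0 arrays in PBS eyes to 5 and 3 in CNTF eyes of normal dogs, whereas IL5 goes from 5 to 1.

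In normal dogs 21 of the 53 tested members rose in the CNTF eye and 7 fell. These are 39.6% and 13.2% of the members, against 23.6% higher and 27.6% lower among all 29334 probes tested, of which 51.2% were called in either direction. With 1 probe for each of the 10669 named genes tested, 28.1% were higher and 23.6% lower (51.7% in all). The median change was 0.13 for the members and -0.09 for all probes. In mutant dogs 15 members (28.3%) rose and 6 (11.3%) fell, where 11.6% of all probes were higher, 17.3% lower and 28.9% called in either direction. For 1 probe per named gene these shares were 13.7%, 16.7% and 30.4%. The median was -0.06 for the members and -0.09 for all probes. With the normexp background correction the split of members higher against lower was 16 to 1 in normal and 13 to 1 in mutant dogs. There the calls of IL2, IL15, IL17C, IL17RA, IL17RE, IL1RL1, IL20RA, IL27RA, IL28B, IL29 and TNFAIP3 were lost in normal dogs, and those of IL2, IL5, IL10RB, IL28B, IL29L, TNFRSF25 and TNFAIP8L3 in mutants. All 15 members that rose in mutants also rose in normal dogs, IL5 and IL28B fell in both, and no member was called in opposite directions. Among the 33 members detected on 4 or 5 arrays of every group, 16 rose (48.5%) and 2 fell (6.06%) in normal dogs. In mutants 10 of them rose (30.3%) and 5 fell (15.2%). The shares of all probes above were not taken under that stricter filter, so they are not a like background for these members. For the normexp splits the calls over all probes are given in the last section.

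**Figure D2:**
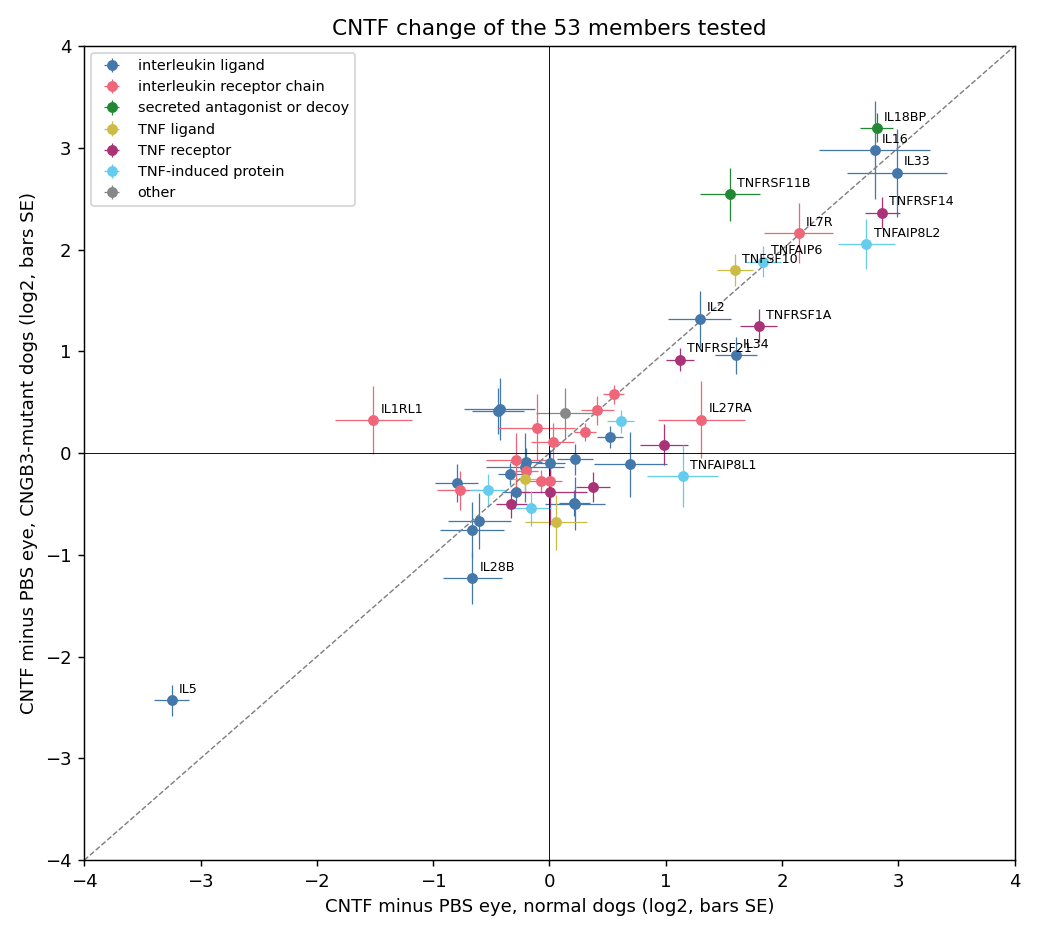
Change of each of the 53 tested members in normal dogs (x axis) and in mutant dogs (y axis), CNTF minus PBS eye in log2 units, with SE bars and the role in colour; the dashed line marks equal change. IL18BP, IL16, IL33, TNFRSF14 and TNFAIP8L2 lie at the upper right and IL5 farthest to the lower left.

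Among the 21 tested interleukin ligands 5 rose and 4 fell in normal dogs, or 23.8% and 19.0%. Both are below the 28.1% higher and 23.6% lower for 1 probe per named gene. For all probes these shares were 23.6% and 27.6%. In mutants 4 rose and 4 fell, 19.0% each, against 13.7% and 16.7% for 1 probe per named gene and 11.6% and 17.3% for all probes. The shares for 1 probe per named gene are the closer background for the roles below too. IL33, an alarmin of the interleukin 1 family that is held in nuclei and released on damage, went from no array above background in either PBS group to 3 arrays in normal and 4 in mutant CNTF eyes. In normal dogs 1 to 5 its levels were -6.64, -6.78, -7.20, -5.67 and -6.62 in PBS eyes and -2.66, -5.01, -3.13, -2.40 and -4.78 in CNTF eyes. In mutant dogs they were -6.44, -6.04, -5.77, -5.55 and -6.78 in PBS and -4.56, -2.40, -1.95, -4.24 and -3.66 in CNTF eyes. The signal of every CNTF eye lay above that of every PBS eye. Not all CNTF arrays were above background, and for those that were not the order was not measured. With dog and slide both as blocks the fitted change turned to -0.47 and -0.42, and with slide alone as a block IL33 was not called. Against the background of the PBS arrays IL33 was at least 2.26-fold higher in normal dogs (adjusted p = 0.000324 by limma) and at least 1.96-fold higher in mutants (adjusted p = 0.000719 by limma).

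Probe sequences here are those of the array files, placed on canFam2 and written in lower case, with capitals for a stretch shared with another probe of the same gene. They are shown for genes whose probes gave different signals or, for IL33, the same one. IL33 probe 1 lies at chr11:30275164-30275223 and probe 2 at chr11:30273279-30273336, both on the plus strand.
IL33 probe 1: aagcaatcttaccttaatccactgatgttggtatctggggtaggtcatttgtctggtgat
IL33 probe 2: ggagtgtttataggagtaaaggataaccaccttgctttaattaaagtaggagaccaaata
Probe 2 behaved alike: it was above background on no PBS array and on 3 CNTF arrays in each genotype, at least 2.07-fold brighter in normal dogs and 1.49-fold in mutants, though with too few such arrays for the test.

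IL16, a chemoattractant cytokine for CD4-bearing cells, was above background on all 10 CNTF arrays and on no PBS array. In normal dogs the levels of IL16 were -5.11, -5.17, -5.91, -5.44 and -5.39 in PBS and -2.27, -2.93, -2.17, -2.75 and -2.93 in CNTF eyes. In mutants they were -6.63, -4.11, -4.30, -5.84 and -4.79 in PBS and -0.92, -2.03, -2.54, -2.46 and -2.83 in CNTF eyes. The groups did not overlap, and mutant dog 1 had both the dimmest PBS eye and the brightest CNTF eye. IL16 was at least 4.48-fold higher in normal dogs (adjusted p = 0.000953 by limma) and at least 4.53-fold higher in mutants (adjusted p = 0.000851 by limma).

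IL16 probe 1 lies at chr3:59336561-59336620 and probe 2 at chr3:59347519-59347578, both on the minus strand.
IL16 probe 1: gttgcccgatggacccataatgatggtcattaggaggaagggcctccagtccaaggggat
IL16 probe 2: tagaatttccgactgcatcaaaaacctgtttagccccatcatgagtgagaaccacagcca
These values are those of probe 1, and probe 2 was above background on no array.

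IL34, a ligand of the receptor CSF1R that maintains microglia, was above background on all arrays. Its levels in normal dogs were -1.08, -1.33, -1.84, -1.56 and -1.61 in PBS eyes and 0.45, -0.24, 0.14, -0.12 and 0.37 in CNTF eyes, with no overlap. In mutants they were -1.32, 0.28, -0.61, -0.54 and -1.60 in PBS and -0.35, 0.63, 0.18, 1.16 and -0.63 in CNTF eyes, and here the groups overlapped although each dog's CNTF eye was the higher. IL34 rose by 1.60 ± 0.18 (SE; adjusted p = 6.25e-05) in normal dogs and by 0.96 ± 0.18 (SE; adjusted p = 0.00251) in mutants. IL15, a growth factor of natural killer and memory T cells, rose in normal dogs, by 0.52 ± 0.11 (SE; adjusted p = 0.0033), and its change in mutants was 0.16 ± 0.11 (SE; adjusted p = 0.324). IL2, the T cell growth factor, rose by 1.29 ± 0.27 (SE; adjusted p = 0.00318) in normal and by 1.32 ± 0.27 (SE; adjusted p = 0.00421) in mutant dogs on its brightest probe. In normal dogs 4 PBS and 5 CNTF arrays of that probe were above background, and in mutants 1 and 4, and no other of the 7 IL2 probes reached 4 arrays of a group.

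IL5, the growth factor of eosinophils, was lower in the CNTF eyes of both genotypes. Its levels in normal dogs were -2.44, -2.15, -0.86, -1.61 and -1.68 in PBS eyes and -5.56, -5.74, -4.15, -4.32 and -5.20 in CNTF eyes. In mutants they were -2.33, -2.55, -2.82, -2.12 and -2.27 in PBS and -5.32, -4.63, -5.07, -4.63 and -4.56 in CNTF eyes. All PBS arrays were above background and lay above all CNTF arrays, of which 1 of 5 in each genotype was above background. IL5 fell by 3.25 ± 0.15 (SE; adjusted p = 1.62e-07) in normal dogs and by 2.43 ± 0.15 (SE; adjusted p = 1.15e-06) in mutants. With normexp background correction the changes were -1.12 (adjusted p = 0.0169) and -0.23 (adjusted p = 0.562), so that the call in mutants was lost. With most CNTF arrays not above background, the size of the fall depends on the background correction.

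IL5 was represented by probe 1 at chr11:23830529-23830588 on the minus strand, and its probe 2 has no position in the files.
IL5 probe 1: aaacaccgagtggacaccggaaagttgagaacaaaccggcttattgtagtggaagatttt
IL5 probe 2: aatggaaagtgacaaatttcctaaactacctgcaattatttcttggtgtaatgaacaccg
Probe 2 was above background on 1 PBS array of a mutant dog and on no other, so that it gave no measured change.

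The other falls among ligands were smaller. IL28B and IL29, names of type III interferons in human, changed by -0.66 ± 0.25 (SE; adjusted p = 0.0483) and -0.80 ± 0.19 (SE; adjusted p = 0.00544) in normal dogs. The fitted change of IL28B turned to 0.80 and 1.10 in normal and mutant dogs with slide as a block, and its difference within slide 3 was 0.54. In mutants IL28B fell in 4 of 5 dogs, with a change of -1.23 ± 0.25 (SE; adjusted p = 0.0042), while IL29 did not pass the test at -0.30 ± 0.19 (SE; adjusted p = 0.27). IL17C, an epithelial ligand of the interleukin 17 family, was called lower in normal dogs at -0.34 ± 0.11 (SE; adjusted p = 0.0259), in 4 of 5 dogs. In mutants IL25, another ligand of that family, changed by -0.49 ± 0.13 (SE; adjusted p = 0.0161), and IL29L by -0.39 ± 0.12 (SE; adjusted p = 0.0305), in 4 of 5 dogs. The call of IL28B in normal dogs was lost without normal dog 2, 3, 4 or 5 (adjusted p = 0.0522 to 0.167), and that of IL29L without mutant dog 2, 3, 4 or 5 (0.0539 to 0.11), by limma with 1 dog left out at a time. IL17C lost its call without normal dog 2, 3 or 5 and IL25 without mutant dog 4.

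Several well-known ligands were measured without a call. TNF, the founding member of its family, was above background on all PBS arrays, on 5 CNTF arrays of normal and on 3 of mutant dogs, and changed by -0.21 ± 0.13 (SE; adjusted p = 0.191) and -0.26 ± 0.13 (SE; adjusted p = 0.169). IL10, an anti-inflammatory cytokine detected on all arrays, changed by 0.70 ± 0.32 (SE; adjusted p = 0.0868) in normal dogs and -0.11 ± 0.32 (SE; adjusted p = 0.828) in mutants. IL7, the lymphocyte survival factor, changed by 0.0073 ± 0.12 (SE; adjusted p = 0.965) and -0.094 ± 0.12 (SE; adjusted p = 0.615). IL23A, a subunit of interleukin 23, changed by -0.67 ± 0.27 (SE; adjusted p = 0.0602) and -0.76 ± 0.27 (SE; adjusted p = 0.0586). IL23A was above background on all PBS arrays, on 5 CNTF arrays of normal and on 2 of mutant dogs. Its change in mutants thus rests partly on arrays not above background. IL12A, a subunit of interleukin 12, was above background on 4 and 2 PBS arrays of normal and mutant dogs and on no CNTF array. IL17A, the T cell cytokine, was so on 4 PBS arrays of normal dogs and 1 CNTF array of a mutant. Without normal dog 2, IL10 (adjusted p = 0.0161) and IL23A (0.0175) passed the test by limma in normal dogs, as did IL12A without mutant dog 3 (0.00211) and IL23A without mutant dog 5 (0.012) in mutants.

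Of the 13 tested interleukin receptor chains 5 rose and 2 fell in normal dogs, 38.5% and 15.4% against 23.6% and 27.6% of all probes, and 3 rose in mutants, 23.1% against 11.6%. IL7R, the chain that binds interleukin 7 and is shared with the receptor for TSLP, was called in both genotypes. Its levels in normal dogs were -3.89, -5.23, -5.08, -4.36 and -6.15 in PBS and -2.07, -2.84, -3.11, -3.21 and -2.77 in CNTF eyes. In mutants they were -6.61, -5.23, -4.32, -6.21 and -4.80 in PBS and -3.79, -3.36, -2.67, -3.28 and -3.28 in CNTF eyes. The signal of every CNTF eye exceeded that of every PBS eye. Above background were 2 PBS arrays of normal dogs and none of mutants. The CNTF array of mutant dog 1 was not above background either, so its order was not measured. IL7R rose by 2.14 ± 0.30 (SE; adjusted p = 0.000239) in normal dogs and was at least 2.09-fold higher in mutants (adjusted p = 0.00028), where no PBS array was above background.

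IL10RB, the chain shared by receptors for interleukins 10 and 22 and type III interferons, rose by 0.55 ± 0.092 (SE; adjusted p = 0.000808) in normal dogs and 0.58 ± 0.092 (SE; adjusted p = 0.000813) in mutants. IL20RA, a chain for interleukins 19, 20 and 24, rose by 0.41 ± 0.14 (SE; adjusted p = 0.0344) and 0.42 ± 0.14 (SE; adjusted p = 0.049), and the call was lost without normal dog 1, 3, 4 or 5 (adjusted p = 0.0538 to 0.106) and without mutant dog 2, 3, 4 or 5 (0.0517 to 0.171). With dog and slide as blocks the change of IL20RA turned to -0.19 and -0.57, and within slide 3 it was -0.35. IL17RA, the common chain of the interleukin 17 receptors, rose in normal dogs by 0.31 ± 0.092 (SE; adjusted p = 0.0176), and without normal dog 3 or 5 the adjusted p was 0.0561 and 0.0686. IL27RA, the chain specific to interleukin 27, rose in normal dogs by 1.31 ± 0.38 (SE; adjusted p = 0.0147). Its CNTF levels there were -2.81, -0.026, -2.57, -2.98 and -2.48 against -3.12, -3.60, -3.38, -3.33 and -3.98 in PBS eyes, so that dog 2 stood far above the other CNTF eyes. Without dog 2 the change of IL27RA was 0.74 (adjusted p = 0.00767).

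IL1RL1, the receptor for IL33, was above background on 4 PBS arrays of normal dogs, on 1 of mutants and on no CNTF array. Its levels in normal dogs were -3.84, -4.30, -4.40, -4.17 and -4.86 in PBS and -5.89, -5.78, -6.61, -5.48 and -5.36 in CNTF eyes, without overlap. It was called lower there, with adjusted p = 0.00368 by limma, and no fold is given because the PBS signal did not exceed the background limit of the CNTF arrays. With normexp correction the change was 0.030 (adjusted p = 0.961), and in mutants IL1RL1 did not pass the test (adjusted p = 0.501). IL17RE, a receptor chain for IL17C, changed by -0.77 ± 0.19 (SE; adjusted p = 0.00718) in normal dogs and -0.37 ± 0.19 (SE; adjusted p = 0.18) in mutants, and 5, 2, 3 and 2 of its arrays were above background in PBS normal, CNTF normal, PBS mutant and CNTF mutant eyes. IL2RG, the common gamma chain, and IL4R did not pass the test in either genotype, with changes of -0.072 ± 0.11 (SE; adjusted p = 0.606) and 0.0073 ± 0.10 (SE; adjusted p = 0.958) in normal dogs.

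Of the 5 secreted antagonists or decoy receptors only 2 were tested, too few to speak for the class. Both rose in both genotypes. For 1 probe per named gene 28.1% were higher in normal dogs and 13.7% in mutants. IL18BP, the secreted protein that binds and blocks interleukin 18, was above background on all arrays and gave levels of 1.49, 1.48, 1.89, 1.82 and 1.73 in PBS and 4.52, 4.44, 4.41, 4.52 and 4.60 in CNTF eyes of normal dogs. In mutants the levels of IL18BP were 1.45, 0.79, 1.44, 1.25 and 1.59 in PBS and 4.36, 4.72, 4.46, 4.39 and 4.58 in CNTF eyes. The gap between PBS and CNTF eyes was far wider than the spread within any group. IL18BP rose by 2.81 ± 0.14 (SE; adjusted p = 2.74e-07) in normal dogs, a 7.03-fold change, and by 3.20 ± 0.14 (SE; adjusted p = 2.12e-07) in mutants, or 9.17-fold.

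TNFRSF11B, which encodes osteoprotegerin, a soluble decoy receptor for the ligands RANKL and TRAIL, had levels of -4.57, -4.65, -4.90, -4.49 and -4.93 in PBS and -3.00, -2.65, -3.91, -2.65 and -3.56 in CNTF eyes of normal dogs. In mutants these were -6.63, -5.78, -5.20, -6.22 and -4.69 in PBS and -3.19, -3.44, -2.68, -3.10 and -3.40 in CNTF eyes. The signals of the CNTF eyes lay above those of the PBS eyes in both genotypes. Above background were 1 PBS array of mutant dogs, against 4 of normal dogs, and 4 CNTF arrays of mutants. TNFRSF11B rose by 1.55 ± 0.26 (SE; adjusted p = 0.000805) in normal dogs and by 2.54 ± 0.26 (SE; adjusted p = 3.16e-05) in mutants. With most mutant PBS arrays not above background, the size of the rise in mutants depends on the background correction. IL1RN, the antagonist that blocks the interleukin 1 receptor, and IL1R2, a decoy receptor for interleukin 1, were each above background on no PBS array and on 3 CNTF arrays in each genotype, too few for the test. IL1RN was at least 2.33-fold brighter in CNTF eyes of normal dogs and 1.76-fold in mutants, and IL1R2 at least 1.79-fold and 2.24-fold. The interleukin 1 ligands IL1A and IL1B and the signalling receptor IL1R1 were above background on no CNTF array.

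TNFSF10, the death receptor ligand TRAIL, was the only one of 3 tested TNF ligands to be called. In normal dogs its levels were -1.04, -1.18, -1.33, -0.95 and -1.45 in PBS and 0.97, 0.53, 0.026, 0.24 and 0.25 in CNTF eyes. Mutants gave -0.94, -0.64, -1.02, -1.70 and -1.56 in PBS and 0.81, 0.65, 0.76, 0.68 and 0.24 in CNTF eyes. The groups did not overlap in either genotype. TNFSF10 rose by 1.59 ± 0.15 (SE; adjusted p = 2.01e-05) in normal dogs and by 1.80 ± 0.15 (SE; adjusted p = 9.50e-06) in mutants, 3.01-fold and 3.48-fold. TNFSF8, the ligand of the receptor CD30, was above background on 2 CNTF arrays in each genotype and on no PBS array, and was not tested.

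Among 7 tested TNF receptors 4 rose in normal dogs (57.1% against 23.6% of all probes), and 3 rose and 1 fell in mutants (42.9% and 14.3% against 11.6% and 17.3%). TNFRSF14, known as HVEM, a receptor of lymphoid and other cells for the ligand LIGHT, had levels of 0.56, -0.32, -0.23, -0.060 and -0.30 in PBS and 2.81, 2.77, 3.21, 2.44 and 2.71 in CNTF eyes of normal dogs. For mutants the values were 0.039, 0.76, 0.025, 0.46 and 0.11 in PBS and 2.47, 3.05, 2.51, 2.81 and 2.38 in CNTF eyes. The lowest CNTF eye was more than 1 unit above the highest PBS eye. TNFRSF14 rose by 2.86 ± 0.15 (SE; adjusted p = 3.04e-07) in normal dogs and by 2.36 ± 0.15 (SE; adjusted p = 1.24e-06) in mutants, that is 7.26-fold and 5.14-fold.

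TNFRSF1A, the widely expressed death domain receptor for TNF, had levels of -1.20, -1.36, -1.82, -1.38 and -1.68 in PBS and 0.44, -0.11, 0.40, 0.12 and 0.72 in CNTF eyes of normal dogs. In mutants the corresponding levels were -1.30, -0.26, -0.92, -1.02 and -1.31 in PBS and 0.048, 0.76, 0.30, 0.55 and -0.23 in CNTF eyes. In normal dogs the groups were apart, and in mutants the lowest CNTF eye and the highest PBS eye nearly met. TNFRSF1A rose by 1.80 ± 0.16 (SE; adjusted p = 1.07e-05) in normal dogs and by 1.25 ± 0.16 (SE; adjusted p = 0.000186) in mutants. The partner receptor TNFRSF1B was above background on 2 PBS arrays and 1 CNTF array of normal dogs and on none of mutants. TNFRSF21, the death receptor DR6 of neurons and lymphocytes, rose by 1.12 ± 0.12 (SE; adjusted p = 3.38e-05) and 0.92 ± 0.12 (SE; adjusted p = 0.000175).

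TNFRSF8, which encodes CD30, rose in normal dogs by 0.99 ± 0.20 (SE; adjusted p = 0.00273), with a change in mutants of 0.081 ± 0.20 (SE; adjusted p = 0.803). TNFRSF25, the death receptor DR3, was called in mutants at -0.50 ± 0.14 (SE; adjusted p = 0.0174), and in normal dogs its change was -0.33 ± 0.14 (SE; adjusted p = 0.0629). Its call was lost without mutant dog 3 or 4 (adjusted p = 0.0719 and 0.0714). TNFRSF19, detected on all arrays, was not called in either genotype.

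The TNFAIP genes are named for induction by TNF or for likeness to a gene so induced, and their products differ. TNFAIP6, a secreted hyaluronan-binding protein known as TSG-6, had levels of -0.55, -0.38, -0.11, 0.36 and -0.39 in PBS and 1.72, 1.53, 1.37, 2.04 and 1.46 in CNTF eyes of normal dogs. Mutant dogs gave -0.11, -0.037, 0.020, -0.34 and -0.036 in PBS and 1.56, 1.85, 1.78, 2.20 and 1.52 in CNTF eyes. It rose in every dog, by 1.84 ± 0.15 (SE; adjusted p = 4.99e-06) in normal and by 1.88 ± 0.15 (SE; adjusted p = 5.31e-06) in mutant dogs.

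TNFAIP8L2, known as TIPE2, a negative regulator of immune cell activation, had levels of -3.44, -3.34, -3.96, -3.36 and -3.78 in PBS and -0.57, -1.19, -0.72, -1.12 and -0.67 in CNTF eyes of normal dogs. In mutants the levels of TNFAIP8L2 were -3.38, -2.56, -3.11, -4.36 and -3.56 in PBS and -1.33, -0.64, -1.97, -1.25 and -1.51 in CNTF eyes. The groups were apart in both genotypes, and it rose by 2.72 ± 0.24 (SE; adjusted p = 1.06e-05) and 2.06 ± 0.24 (SE; adjusted p = 9.90e-05). Of its relatives, TNFAIP8L1 rose in normal dogs by 1.14 ± 0.30 (SE; adjusted p = 0.00973) with -0.22 ± 0.30 (SE; adjusted p = 0.622) in mutants, and TNFAIP8L3 was called lower in mutants at -0.54 ± 0.17 (SE; adjusted p = 0.0364), a call that each of the 5 fits without a mutant dog lost (adjusted p = 0.0545 to 0.105). TNFAIP1 rose in normal dogs by 0.61 ± 0.11 (SE; adjusted p = 0.00146) and changed by 0.31 ± 0.11 (SE; adjusted p = 0.0607) in mutants. TNFAIP3, the ubiquitin-editing enzyme A20 that limits NF-kB, fell in normal dogs, with a change of -0.53 ± 0.16 (SE; adjusted p = 0.0183), and its change in mutants was -0.37 ± 0.16 (SE; adjusted p = 0.111). The call of TNFAIP3 was lost without normal dog 3 or 5 (adjusted p = 0.0535 and 0.0679), and in mutants it passed without dog 3 (0.0367). TNFAIP8 was above background on 1 PBS and 2 CNTF arrays in each genotype and was not tested.

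**Figure D3:**
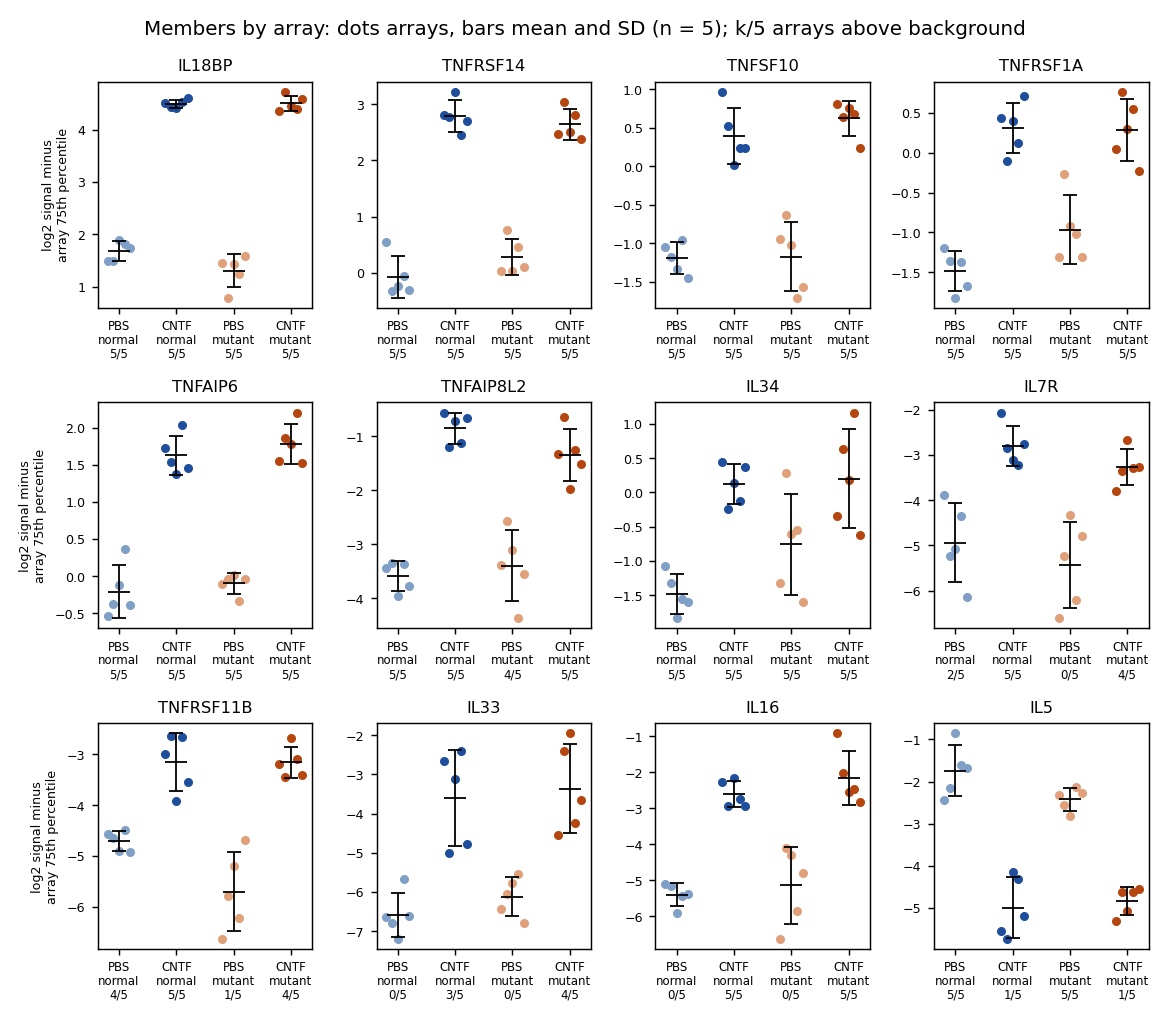
Level of 12 members on every array (log2 signal minus the array's 75th percentile; columns are PBS and CNTF eyes of normal and mutant dogs, dots are arrays, bars the mean and SD of 5, and k/5 the arrays above background). For 11 of them every CNTF eye of normal dogs has a higher signal than every PBS eye, above background or not. IL5 shows the reverse order.

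The question whether CNTF changed the members differently in mutant and normal dogs was put to the difference of the CNTF changes. No member passed, and limma's smallest adjusted p was 0.103, whereas 12 of 53 members had an unadjusted p under 0.05. Among all 29334 probes 0 were called and 10162 had an unadjusted p under 0.05, which is 34.6% against 22.6% of the members. The members with that smallest adjusted p included TNFAIP8L1 with a difference of -1.37 ± 0.43, TNFRSF8 with -0.90 ± 0.29 and IL25 with -0.70 ± 0.18. IL1RL1 and IL5 had it too, but their CNTF arrays were mostly not above background and no difference is given. The members called in normal dogs alone, 11 in all, and the 4 called in mutants alone are thus not shown to differ between genotypes.

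Genotypes were also compared within each treatment. In PBS eyes none of 50 tested members was called, with a smallest adjusted p of 0.0929 by limma, where 8 of 29012 probes (0.0276%) were called. An unadjusted p under 0.05 was found for 16 members (32.0%), against 34.9% of all probes. IL20RA and TNFRSF8 were the members whose groups did not overlap, mutants being higher, as were 3.14% of all probes, while no member but 2.31% of all probes lay lower without overlap. Levels of IL20RA were -2.69, -2.31, -2.37, -2.27 and -2.34 in normal and -1.64, -2.02, -1.99, -1.94 and -1.65 in mutant PBS eyes. The mutant minus normal difference was 0.55 ± 0.13 (SE; adjusted p = 0.0929) for IL20RA and 0.99 ± 0.29 (SE; adjusted p = 0.0929) for TNFRSF8. Without the PBS array of normal dog 1, 6 of 44 tested members were called, namely IL10, IL20RA, IL25, TNFRSF8 and TNFAIP8L1 as higher and IL5 as lower in mutants, and 23.9% of all probes were. Within slide 2, where PBS normal 5 lay beside PBS mutant 1 to 3, the difference of IL20RA was 0.46, of TNFRSF8 1.14 and of IL10 1.69.

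In CNTF eyes none of 42 tested members was called, with a smallest adjusted p of 0.627 by limma, where 3 of 25710 probes (0.0117%) were called. Here 3 members (7.14%) had an unadjusted p under 0.05, against 5.73% of all probes. IL17B was the member whose groups did not overlap, lower in mutants as were 0.836% of all probes, with a difference of -0.94 ± 0.32 (SE; adjusted p = 0.695). Its level was -1.15 in normal dog 1, against -3.10 to -2.64 in the other normal dogs and -3.66 to -3.31 in mutants. The probe was not above background in the CNTF eyes of mutant dogs 1 and 2. With slide as a block IL4I1 was called higher in mutants by 1.61 ± 0.24 (SE; limma adjusted p = 0.0232), where 0.385% of probes were called. That difference rests on slide 4, which held CNTF eyes of normal dogs 3 to 5 beside that of mutant dog 1 alone. IL4I1 was at -0.52 in the CNTF eye of mutant dog 1, against -2.25 to -1.91 in the other mutants. Without the slide block its difference was 0.49 (limma adjusted p = 0.991).

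The rule kept the brightest probe of each gene, and 28 members have several. In 8 of these at least 2 probes reached 4 arrays of a group, in 11 only 1 did and in 9 none did, and in 10 a measured probe stood beside one that was above background on no array. Those 10 were IL2, IL2RB, IL4, IL4R, IL7, IL7R, IL16, TNF, TNFAIP1 and TNFAIP3. The probes of IL5 and IL16 are described above, and those of IL18, IL12RB2 and IL4 follow as further examples. No member probe shares a run of 20 bases on the same strand with a probe of another gene name, and 1, of TNFAIP1, does on the opposite strand.

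IL18 is an inflammasome-activated ligand of the interleukin 1 family. Its selected probe, at chr5:23999704-23999763, and the other, at chr5:24004289-24004348, are both on the plus strand.
IL18 probe 1: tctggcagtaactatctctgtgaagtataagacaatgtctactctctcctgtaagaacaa
IL18 probe 2: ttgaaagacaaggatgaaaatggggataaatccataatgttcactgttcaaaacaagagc
Probe 1 was above background on 19 arrays and was not called, with -0.44 ± 0.22 (SE; adjusted p = 0.12) in normal and 0.42 ± 0.22 (SE; adjusted p = 0.194) in mutant dogs. Probe 2 was above background on no PBS array and on 4 and 3 CNTF arrays of normal and mutant dogs. In normal dogs its levels were -5.81, -7.00, -5.67, -5.84 and -5.71 in PBS and -3.87, -4.68, -4.07, -3.85 and -4.25 in CNTF eyes. In the mutant dogs the levels were -6.73, -6.45, -6.24, -6.81 and -6.02 in PBS and -5.01, -4.99, -4.23, -3.68 and -3.41 in CNTF eyes. Probe 2 was called higher on its fitted values in normal dogs (adjusted p = 7.57e-05 by limma) and in mutants (adjusted p = 2.64e-05 by limma). The test rests on PBS signals not above background, and the probe was admitted through CNTF eyes of normal dogs only. The bounds were 1.55-fold and 1.05-fold, and both average in CNTF arrays not above background. A rise in mutants was therefore not measured.

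IL12RB2 encodes the signalling chain of the interleukin 12 receptor. Both its probes lie on the minus strand, the selected at chr5:46199544-46199603 and the other at chr5:46199223-46199282.
IL12RB2 probe 1: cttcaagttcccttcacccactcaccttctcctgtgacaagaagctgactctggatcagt
IL12RB2 probe 2: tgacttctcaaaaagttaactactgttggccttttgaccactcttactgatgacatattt
Probe 1 was above background on all 20 arrays with changes of -0.20 ± 0.096 (SE; adjusted p = 0.104) and -0.18 ± 0.096 (SE; adjusted p = 0.19). Probe 2 gave levels of -5.64, -6.76, -5.05, -4.82 and -6.68 in PBS and -2.88, -3.11, -2.82, -3.47 and -3.58 in CNTF eyes of normal dogs. The mutant levels were -5.55, -4.64, -5.85, -5.45 and -5.60 in PBS and -4.49, -3.47, -2.85, -3.44 and -3.24 in CNTF eyes. Probe 2 was above background on no PBS array and was called higher, at least 3.01-fold in normal dogs (adjusted p = 0.000131 by limma) and 1.79-fold in mutants (adjusted p = 0.00135 by limma).

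IL4, the cytokine of type 2 immunity, had a selected probe with no position in the files, which was saturated on 18 of 20 arrays, so no fold is given. Probes 2 and 3 overlap, at chr11:23986305-23986364 and chr11:23986281-23986340 on the plus strand.
IL4 probe 1: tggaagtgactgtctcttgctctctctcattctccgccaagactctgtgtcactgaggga
IL4 probe 2: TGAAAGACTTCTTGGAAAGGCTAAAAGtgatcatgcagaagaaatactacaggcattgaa
IL4 probe 3: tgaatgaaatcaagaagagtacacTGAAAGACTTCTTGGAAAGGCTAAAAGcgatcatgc
Of the other 3 IL4 probes, probe 2 was above background on 1 PBS array of a normal dog. The selected probe and the others thus gave different signals, and which of them follows IL4 messenger RNA was not tested.

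**Figure D4:**
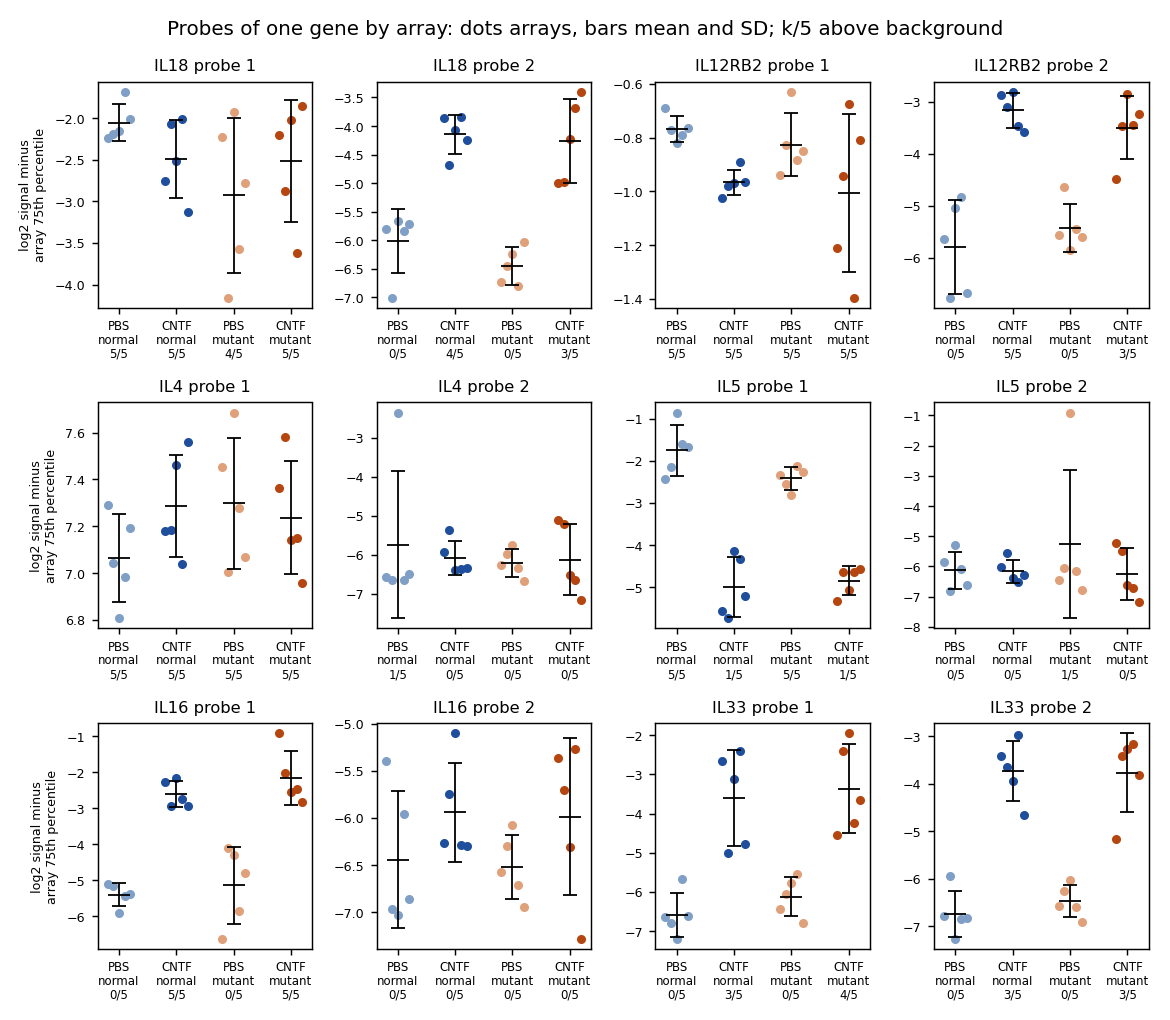
Level on every array (log2 signal minus the array's 75th percentile) of probes of the same gene for IL18, IL12RB2, IL4, IL5, IL16 and IL33, with the mean and SD of 5 as bars and the arrays above background as k/5. In every CNTF eye the signal of probe 2 of IL18 and of IL12RB2 is above that in any PBS eye. The signal of probe 1 is not. The 2 IL33 probes show the order of probe 2. No PBS array and not all CNTF arrays of these probes were above background. The order of the dim CNTF arrays was thus not measured.

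By position on canFam2, 94 of the 96 selected probes were mapped, to 28 chromosomes, and 42 lay in 16 groups of neighbours no more than 1 Mb apart. The interleukin 1 group on chromosome 17 (IL1A, IL1B, IL1F8, IL1F5, IL1F10 and IL1RN, chr17:40082376-40360690) held no tested member, and IL1RN was its only gene above background on more than 1 array. The interleukin 10 group on chromosome 7 (IL10, IL19, IL20 and IL24, chr7:8889898-9002336) held 2 tested members, none of them called. In the group of IL3, IL5 and IL13 on chromosome 11, chr11:23337478-23966292, IL5 fell while its neighbours were not tested. Of IL20RA, IL22RA2 and TNFAIP3 on chromosome 1, chr1:32549819-33303020, IL20RA rose and TNFAIP3 fell in normal dogs. Median GC content was 45.0% for probes above background on no array and 47.5% for those above it on all.

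Genes that carry these signals inside the cell were counted from fixed lists. Of 19 tested NF-kB and TNF receptor adaptor genes 13 rose and 3 fell in normal dogs, and 6 rose and 1 fell in mutants, with median changes of 0.41 and 0.28. These are 68.4% higher and 15.8% lower in normal dogs and 31.6% and 5.26% in mutants. For 1 probe per named gene the shares were 28.1% and 23.6% in normal dogs and 13.7% and 16.7% in mutants. For all probes they were 23.6% and 27.6%, and 11.6% and 17.3%. These are also the background of the lists that follow. NFKB2, a subunit of the non-canonical NF-kB pathway, rose by 1.67 ± 0.18 (SE; adjusted p = 4.84e-05) and 1.04 ± 0.18 (SE; adjusted p = 0.00158), and NFKBIA, the inhibitor that NF-kB itself induces, by 1.02 ± 0.11 (SE; adjusted p = 5.45e-05) and 0.57 ± 0.11 (SE; adjusted p = 0.00331). The 3 genes of that list that fell in normal dogs were CHUK (-0.94, adjusted p = 0.00421 by limma), TAB2 (-0.52, 0.00345) and BIRC2 (-0.50, 0.0287). In mutants TAB1 fell (-0.57, adjusted p = 0.0335 by limma). Of 4 tested interleukin 1 and Toll signalling genes 3 rose in normal dogs and 2 in mutants, with medians of 0.72 and 0.51. PYCARD, the inflammasome adaptor ASC, rose by 3.75 ± 0.26 (SE; adjusted p = 1.70e-06) and 3.69 ± 0.26 (SE; adjusted p = 2.51e-06). Of 12 tested kinase and effector genes of interleukin receptors 5 rose and 2 fell in normal dogs and 3 rose in mutants, with medians of 0.29 and 0.26 (41.7% higher and 16.7% lower in normal dogs). PTPN6, a phosphatase of blood cells, rose by 2.06 ± 0.16 (SE; adjusted p = 3.02e-06) and 2.17 ± 0.16 (SE; adjusted p = 2.80e-06).

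Markers of microglia and macrophages and pan-leukocyte markers rose in the CNTF eyes, while those of other leukocytes were mixed or fell. Of 8 tested markers of microglia and macrophages 8 rose in normal dogs and 7 in mutants, and their summed signal, in multiples of the 75th percentile, was 4.73 to 6.29 in PBS and 22.9 to 36.0 in CNTF eyes of normal dogs. In mutants it was 6.76 to 9.82 and 24.0 to 39.7. The pan-leukocyte markers PTPRC and CD53 rose in both genotypes, with PBS and CNTF sums of 0.0938 to 0.148 and 0.666 to 1.11 in normal dogs and 0.0651 to 0.137 and 0.745 to 1.42 in mutants. Of 5 tested T and NK cell markers 2 rose and 1 fell in each genotype, with sums of 1.51 to 1.88 and 1.95 to 2.97 in normal dogs and 1.37 to 1.99 and 1.77 to 2.75 in mutants. Of 3 tested B cell markers 2 fell in each genotype, with MS4A1, CD22 and BLK above background on no array and sums of 1.20 to 1.34 and 0.833 to 1.07 in normal dogs and 0.867 to 1.42 and 0.624 to 1.04 in mutants. Of 5 tested neutrophil markers 2 rose in normal dogs, and 1 rose and 1 fell in mutants, with sums of 1.82 to 2.94 and 2.33 to 2.83 in normal dogs and 2.46 to 5.26 and 1.55 to 3.37 in mutants. Of 10 retinal markers 1 rose and 3 fell in normal dogs and 1 rose and 7 fell in mutants, with sums of 404 to 549 and 352 to 507 in normal dogs and 483 to 809 and 294 to 483 in mutants. Of 6 pigment epithelium markers 3 fell in normal dogs and 2 in mutants, with sums of 119 to 152 and 134 to 166 in normal dogs and 126 to 185 and 116 to 173 in mutants. Of 4 tested vascular markers 2 rose and 1 fell in normal dogs and none was called in mutants, with sums of 42.3 to 58.1 and 47.6 to 55.7 in normal dogs and 35.7 to 63.3 and 32.0 to 60.0 in mutants, and CDH5 and TEK were above background on no array. Sums are over the arrays with a value for every marker of the list. The part of these cell types in the members' changes was not tested.

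The slide is the main limit of the CNTF comparisons. With slide as a block and no dog block, 7 members rose and 1 fell in normal dogs and 6 rose and 1 fell in mutants, where 862 and 284 probes in all were higher and lower in normal dogs and 499 and 296 in mutants. All of these were called in the dog-block fit too: IL18BP, TNFAIP6, TNFAIP8L2, TNFRSF14 and TNFSF10 rose and IL5 fell in both genotypes, IL7R and TNFRSF1A rose in normal dogs and IL16 rose in mutants. With dog and slide both as blocks no member was called. Within slide 3 alone, 20 of the 21 members that rose in normal dogs were higher on the CNTF arrays, IL20RA being the exception. Of the 7 that fell 5 were lower, IL17C and IL28B being the exceptions. The slide 3 arrays also entered the fit that made these calls, so this agreement is not an independent check. No share of all called probes stands beside it. The slide 3 difference was 3.06 for IL18BP and 2.50 for TNFRSF14. For IL2, IL16, IL33 and IL7R neither PBS array of slide 3 was above background, and for IL5, IL29 and TNFAIP3 neither CNTF array was. The direction but not the size of their slide 3 difference was thus measured. For IL33 not every CNTF array of slide 3 was above background either. For IL1RL1 no array of slide 3 was above background, and for IL17RE only the PBS array of mutant dog 5 was.

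**Figure D5:**
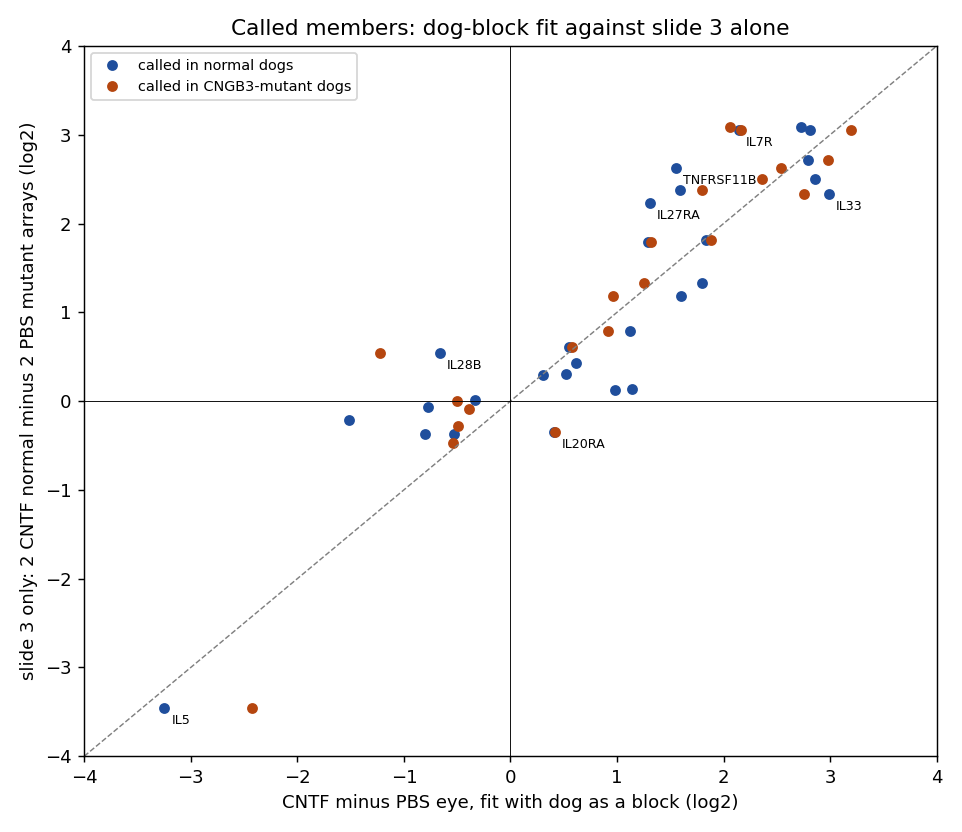
Change of the called members in the fit with dog as a block (x axis, log2) against the difference within slide 3, which is 2 CNTF arrays of normal dogs minus 2 PBS arrays of mutant dogs (y axis, log2). Points near the dashed line have equal values, IL5 is low on both axes, and IL20RA and IL28B have opposite signs on the axes.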

How the data were processed

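RNA of 20 dog retinas (100 ng each, RIN above 8) was hybridised to 1-colour Agilent arrays, 1 retina per array. Spot intensity was extracted and background-subtracted by the authors with Agilent Feature Extraction 9.5.3.1, per the file headers, and probe positions are those of canFam2. The deposited matrix of log2 values, found by its equal quantiles to be quantile normalized, served as an alternative. Partek 6.4 is also named, with no role, per the submitters' processing notes. Of 45220 spots 1417 control spots and outlier spots were left out. The number of arrays limits the precision.

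The processed intensity was averaged per probe, and its log2 value was set relative to each array's 75th percentile. Probes detected above background by Feature Extraction on 4 or 5 of the 5 arrays of some group were fitted with limma 3.58.1 in R 4.3.3 (two-sided, Benjamini-Hochberg over all probes tested). CNTF changes and their difference used all 20 arrays with dog as a block, and genotypes were compared within the 10 arrays of each treatment. The 2 eyes of a dog were paired by the replicate number in the labels. After subtracting group means, the 2 eyes of normal dogs 1 to 5 correlated at 0.12, -0.063, -0.15, 0.29 and -0.071 across 27888 probes. Those of mutant dogs 1 to 5 correlated at 0.19, 0.58, 0.35, 0.47 and 0.69. Of 10 dogs 5 matched their own other eye best, namely normal dog 4 and mutant dogs 2 to 5. In normal dogs the pairing thus rests on the labels, with little backing from the values. No arrays were identical. Slides were told apart by scan time in the headers. A probe above background on no array of a group gave only a bound, the mean of the brighter group over, per dim array, the higher of its own signal and the lowest signal well above background.

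The members and lists were chosen with earlier results of these data known. Named were, per comparison, the 15 members with the largest change in each direction that were called and moved the same way in every dog (genotype: groups without overlap), and a fixed list of well-known members. IL17C, IL28B in mutants, IL29L, IL1R2, TNFSF8, the additional probes and the members of genome groups were named after their values were seen. Other settings tried were normexp with an offset of 50, quantile normalization, the deposited values, other filters, slide as a block, no dog block, each dog left out and all probes of the member genes. The fits were tested on simulated data. No red cell marker was measured. Some genes of the pathway and marker lists are counted but not reported by name here.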

Additional observations from a re-analysis of the deposited data

Results flagged for a closer look

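In 6 of 108 groups of 5 arrays tested, 1 array stood apart from the other 4 by Dixon's criterion, and chance alone gives about 1 in 20. IL20RA was at -2.69 in the PBS eye of normal dog 1, against -2.37 to -2.27 in the others, and at -0.88 in the CNTF eye of mutant dog 3, against -1.62 to -1.50. IL27RA was at -0.026 in the CNTF eye of normal dog 2, against -2.98 to -2.48. IL17RA was at -0.23 in the PBS eye of mutant dog 5, against 0.15 to 0.22. TNFRSF25 was at -4.51 in the CNTF eye of mutant dog 4, against -3.67 to -3.45, and TNFAIP8L3 at -1.13 in the CNTF eye of mutant dog 5, against -0.48 to -0.23.

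Probes that the choice of 1 per gene left aside gave calls where the chosen probe gave none. For the second IL12RB2 probe the fitted values were 2.62 in normal and 1.92 in mutant dogs, and for the second IL18 probe 1.86 and 2.19. No PBS array of either probe was above background, so these are not measured changes, and the bounds were 3.01-fold and 1.79-fold for IL12RB2 and 1.55-fold and 1.05-fold for IL18. Another TNFAIP1 probe changed by 0.36 in mutants.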

How the results depend on the processing

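With slide as a block and no dog block, the members called fell from 21 higher and 7 lower to 7 and 1 in normal dogs, and from 15 and 6 to 6 and 1 in mutants. All probes called fell from 6911 higher and 8106 lower to 862 and 284 in normal dogs, and from 3409 and 5064 to 499 and 296 in mutants. With dog and slide both as blocks, which leaves few arrays to separate treatment from slide, members higher and lower were 0 and 0 in both genotypes, and all probes 0 and 0 in normal dogs and 37 and 10 in mutants. For the difference between genotypes, 69 probes were called with slide as a block and 45 with both. Normexp left 1 member lower in each genotype, with 3521 and 2237 probes higher and lower in normal dogs and 1846 and 1451 in mutants. Members lower in normal dogs were 3 with the filter on all arrays (5402 probes), 3 without the replicate block, 3 with the filter on every group and 2 without the dogs of slide 3, a setting added after seeing the data as was the filter on every group. Without the dogs of slide 3, 2070 probes were higher and 2682 lower in mutants.

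The replicate block, that is the pairing of both eyes, changed 8 member calls: without it IL17C, IL17RA, IL17RE, IL28B and TNFAIP3 lost theirs in normal dogs, and IL20RA, TNFRSF25 and TNFAIP8L3 in mutants. With all probes of the member genes, 27 probes were higher and 7 lower in normal dogs, and 20 and 7 in mutants.

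Some changes turned their sign. With dog and slide as blocks IL33 was at -0.47 in normal and -0.42 in mutant dogs, IL20RA at -0.19 and -0.57, IL28B at 0.74 and 1.19, and IL29L at 0.24 in mutants. With slide alone IL28B was at 0.80 and 1.10, IL17C at 0.038 in normal dogs, and IL20RA at -0.089 and IL29L at 0.17 in mutants. Within slide 3 IL20RA was at -0.35, IL28B at 0.54, IL17C at 0.0075 and TNFRSF25 at 0.0042. With normexp IL1RL1 was at 0.030 in normal dogs and TNFRSF25 at 0.35 in mutants. The cause was not tested.

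Between genotypes in PBS eyes, the 8 probes called became 2 with normexp, 1 with quantile normalization, 1 with the deposited values, 4 without a filter, 0 with the filter on all arrays, 1 with slide as a block and 0 with the filter on every group. In CNTF eyes the 3 became 0 with quantile normalization, the deposited values, no filter and either stricter filter, and 99 with slide as a block, where 1 member was called.

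Leaving out 1 dog gave 19 to 23 members higher and 3 to 6 lower in normal dogs (5302 to 7274 and 5624 to 7629 probes), and 13 to 15 and 2 to 6 in mutants (2672 to 3088 and 3638 to 4121 probes). The difference gave 0 members (0 to 4 probes), the genotypes 0 to 6 members in PBS eyes (1 to 6769 probes) and 0 in CNTF eyes (0 to 64 probes). Probes near background limit IL5, IL33, IL16, IL7R, IL2, IL1RL1, TNFAIP3 and, in mutants, TNFRSF11B to bounds or to changes that depend on the background correction.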
